A study of Saccharomyces cerevisiae with 4 samples.

Results

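Unannotated probe sets with unique sequence make up 1861 of the 9335 probe sets of a budding yeast (Saccharomyces cerevisiae) expression array and have no gene symbol in the platform's probe annotation. They were chosen by annotation and ID alone: the 60 controls were left out, and so were the 582 unannotated probe sets whose suffix marks shared sequence or a relaxed choice of probes, which leaves probe sets designed to read 1 sequence. No measured value entered the choice. Total RNA was read on 4 single-colour Affymetrix arrays, 2 from wild-type cells and 2 from cells carrying the mutant histone H3 K4,36,79R, in which arginine replaces lysines 4, 36 and 79. In both groups the cells grew in selective galactose medium and were then moved to selective glucose medium for 9 h, a shift that per the series text represses wild-type H3 and leaves mutant H3 as the only H3 still made in the mutant. The labels used here give no strain background, marker genotype or plasmid, and H3 deposited before the shift may persist in the mutant's chromatin, which these arrays do not measure. The series text describes the arrays of a group as replicate cultures.

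The question for these probe sets is whether the mutant made more RNA from sequence that no named gene accounts for. As background, Set2 methylates lysine 36 of H3 behind elongating RNA polymerase II, and that mark recruits the Rpd3S deacetylase, which keeps chromatin inside genes closed to stray initiation. Set1 and Dot1 methylate lysines 4 and 79. Many transcripts that arise between or inside genes in yeast are short-lived, because the Nrd1, Nab3 and Sen1 proteins end them early and the nuclear exosome with Rrp6 degrades them. Steady-state RNA therefore shows only what survives this removal.

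An empty symbol is not proof of an unknown transcript. All 1861 probe sets are simply not listed in the annotation table used here, and they are unnamed, not known to lie outside genes. Of the genes in the reference table of assembly R64, 5751 of 6021 protein-coding genes were named by a listed probe set, but only 91 of 299 tRNA genes, 57 of 76 snoRNA genes, 0 of 22 genes of the class ncRNA and 0 of 7 antisense RNA genes were. Some unannotated probe sets may therefore read known genes. Neither their sequences nor their genome positions are in the files used here, so none is printed.

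Facts of the whole data set that touch these values are few. Each array was scaled to a common median, and 5.71 (the 20th percentile of scaled signals) was added to each signal as a pseudocount before log2. Each of the 10 ribosomal RNA controls read more in either mutant array than in either wild-type array (median log2 change 1.43), and whether this bears on the unannotated probe sets was not tested. The 3 probe sets shared by the H3 genes disagreed, with log2 changes of -1.84, -0.05 and 0.45, and do not check the labels.

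The unannotated probe sets were mostly dim. Their median scaled signal was 5.18 and 4.51 in wild type, compared with 6.28 and 5.12 in the mutant. The median of mutant replicate 1 stood above the other 3 arrays, and that of mutant replicate 2 lay between the wild-type arrays. The 5657 probe sets with 1 gene symbol and no suffix had medians of 54.2 to 55.7. Signals of different probe sets are not on a common scale of abundance, so this gap describes brightness, not numbers of RNA molecules. Of the unannotated probe sets 753 (40.5%) were at or below the pseudocount on all 4 arrays, against 4.31% of the probe sets with 1 symbol, and 660 (35.5%) were above it on all 4. They gave 3.05% and 3.21% of the summed signal of all non-control probe sets in wild type, compared with 3.25% and 3.34% in the mutant. Both mutant shares were above both wild-type shares. Multiplying an array by a constant cannot move such a share, though quantile normalization could. With 2 arrays against 2, an exact permutation p cannot fall below 0.333. As the arrays report relative abundance, a loss of RNA per cell and a loss of some cells cannot be told apart.

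**Figure D1:**
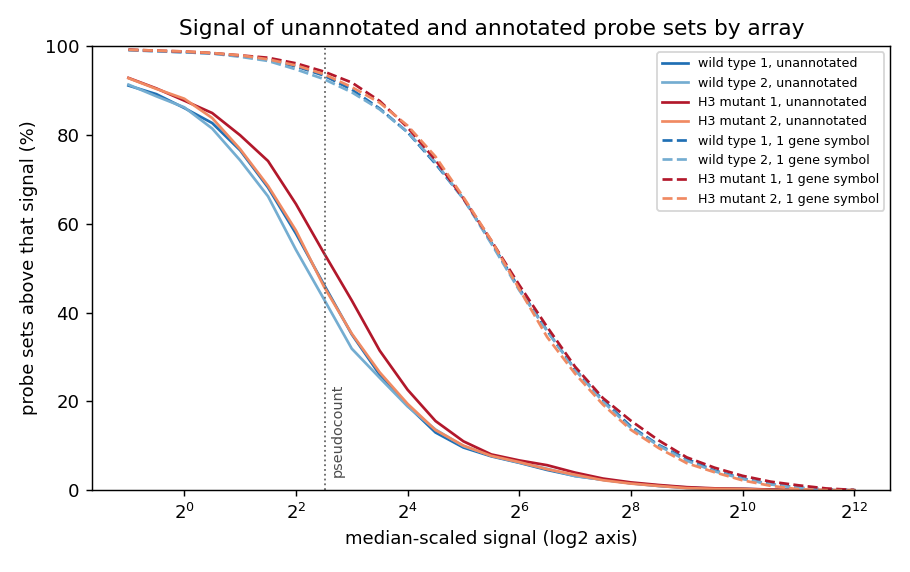
Percent of probe sets (vertical axis) whose median-scaled signal exceeds the value on the horizontal log2 axis, for the 1861 unannotated probe sets (solid lines) and the 5657 probe sets with 1 gene symbol and no suffix (dashed lines), 1 line per array. The unannotated curves fall off at lower signals, and that of H3 mutant replicate 1 lies to the right of the other 3 near the pseudocount of 5.71.

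A small group of unannotated probe sets was bright all the same, and among the 6 brightest only 1 had separate groups. The mean over all arrays exceeded 100 for 78 of them (4.19%) and 500 for 11. The brightest, 8668_at, read 1915 and 1873 in wild type, compared with 2468 and 1590 in the mutant, so that the mutant arrays lay on either side of wild type (log2 change 0.06, SE 0.29). Next came 10916_at, with 1739 and 1531 in wild type, compared with 1748 and 1399 in the mutant (log2 change -0.06, SE 0.24). Probe set 5234_at read 1451 and 1371 in wild type against 1559 and 1070 in the mutant. The spread between the mutant arrays was the wider one in all 3. Probe set 8987_at read 960 and 1383 in wild type, a gap wide enough to hold both mutant values of 1115 and 1234. For 4625_at the wild-type arrays gave 1111 and 1142 and the mutant arrays 1253 and 1052. The 1 with separate groups was 9184_at, at 1041 and 1116 in wild type, compared with 959 and 839 in the mutant, and the log2 difference of -0.26 was little more than its SE of 0.20 (limma adjusted p = 0.528).

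On the scale of log2 signal plus pseudocount, replicates of the unannotated probe sets differed by about as much as those of annotated ones. The SD of the log2 difference between replicate arrays was 0.285 in wild type and 0.331 in the mutant, and 0.308 and 0.340 for probe sets with 1 symbol. The pseudocount narrows the differences of dim probe sets, so these SDs do not compare the classes at like brightness. Replicate arrays correlated with r = 0.974 in wild type and 0.966 in the mutant, and with 0.985 and 0.983 for probe sets with 1 symbol. Across groups the SD of the log2 difference was 0.330 to 0.408 for the unannotated probe sets and 0.3997 to 0.512 for those with 1 symbol. The correlation across groups was 0.948 to 0.964 and 0.960 to 0.975. The widest disagreement between wild-type replicates was that of 8048_at, which read 135.3 and 23.7 there and 95.5 and 110.8 in the mutant. Between mutant replicates it was that of 8040_at, at 25.4 and 74.2, where wild type gave 72.8 and 67.5. Neither difference between groups can be read for these probe sets, since 1 array decides it.

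In the comparison of mutant with wild type, no unannotated probe set passed in limma at a threshold of 0.05, with p adjusted by Benjamini-Hochberg over the 9275 probe sets fitted. The counts were 0 of 1861 higher, where 0.0323% of all probe sets tested were called, and 0 of 1861 lower, where 0.216% were. At an unadjusted p under 0.05, 177 were higher (9.51%, against 9.66% of all) and 62 were lower (3.33%, against 8.6% of all). The split of those counts moved with the scaling, to 151 higher and 93 lower after quantile normalization and to 63 higher and 228 lower without scaling, which shifts the median of all probe sets tested from 0.02 to -0.25. When the 1803 dimmest probe sets, those with a mean over all 4 arrays at or below the pseudocount, were left out of the fit, 15 of 882 unannotated probe sets were called higher (1.70%, against 1.26% of the 7472 in that fit) and 1 lower (0.113%, against 1.1%). In the fit of 9275, leaving out either mutant array gave 0 calls among unannotated and among all probe sets. Without wild-type replicate 1, 35 unannotated probe sets were higher (1.88%, against 2.16% of all) and 3 lower (0.161%, against 0.809%). Without wild-type replicate 2 the counts were 14 higher (0.752%, against 1% of all) and 3 lower (0.161%, against 0.755%). Robust eBayes called 4 higher (0.215%, against 0.377% of all) and 1 lower (0.0537%, against 0.485%). In these 3 fits the share of unannotated probe sets called was below that of all probe sets in both directions.

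The log2 changes of the unannotated probe sets leaned upward by a small amount, and most of the lean was in mutant replicate 1. Their median was 0.07, against 0.02 over all probe sets tested, and 61.6% of them were above 0 against 53.4% of all. On the values as deposited the median turned to -0.086 with 36.3% above 0, where all probe sets had -0.25 and 23.4%. Mutant replicate 1 stood 0.14 above the wild-type mean at the median and mutant replicate 2 at -0.0010 from it, with 66.0% and 49.4% of the unannotated probe sets above 0. All probe sets tested stood at 0.07 and -0.02 in the same arrays, with 57.4% and 46.4% above 0, so the median of the unannotated ones was above that of all in both. The difference between the 2 mutant arrays, -0.13 at the median, was therefore larger than the change itself. The 2 wild-type arrays differed by -0.01.

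Dim annotated probe sets leaned upward too. Between 5.71 and 11.4 in mean signal the median change was 0.11 over 385 unannotated probe sets and 0.10 over 387 with 1 symbol. Over 45.7 it was 0.07 over 143 and 0.00 over 3169. In every band of brightness mutant replicate 1 had a higher median than mutant replicate 2 among the unannotated probe sets, for example 0.24 against 0.02 between 5.71 and 11.4 and 0.19 against -0.06 over 45.7. Among those with 1 symbol the order was the same except between 22.8 and 45.7, where both stood at 0.02.

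**Figure D2:**
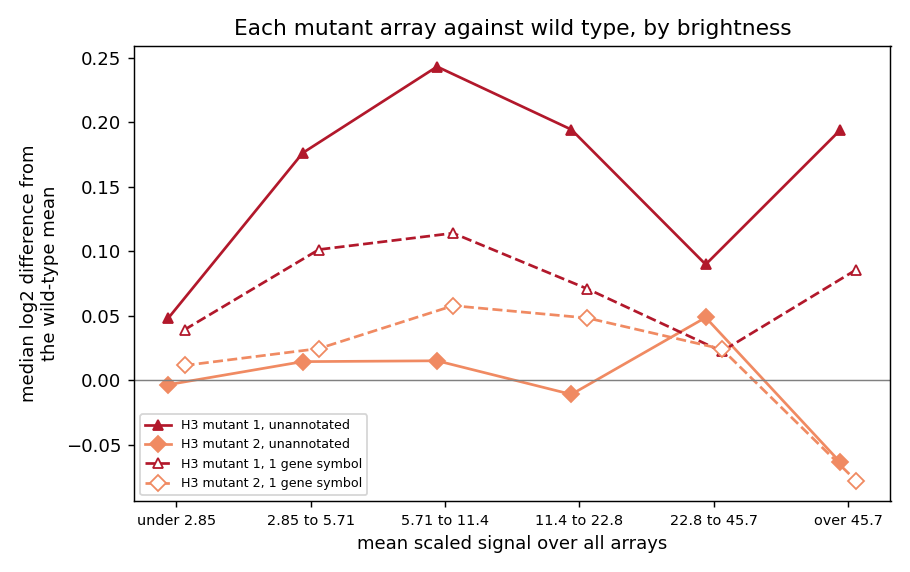
Median log2 difference of each mutant array from the mean of the wild-type arrays (vertical axis) in 6 bands of mean scaled signal over all 4 arrays (horizontal axis), for unannotated probe sets (filled symbols, solid lines) and probe sets with 1 gene symbol and no suffix (open symbols, dashed lines). Mutant replicate 1 peaks at 0.24 for unannotated probe sets between 5.71 and 11.4, where mutant replicate 2 is at 0.02.

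On the median-scaled signals, larger differences between the groups were more often upward among the unannotated probe sets. Both mutant arrays lay above both wild-type arrays for 532 of them (28.6%, against 26.5% of all probe sets tested) and below both for 273 (14.7%, against 24.2% of all). With a change of at least 1.5-fold on the scale of signal plus pseudocount as well, 95 were higher (5.10%, against 5.88% of all) and 18 lower (0.967%, against 4.46% of all). The share of larger upward differences was thus near that of all probe sets, and the share of downward ones below it. These counts were not repeated under other scaling, and the split at an unadjusted p under 0.05 reversed without scaling. From 5.71 upward in mean signal, the 4 bands held 8.31%, 9.02%, 12.7% and 7.69% of unannotated probe sets with such an upward difference, and 6.98%, 7.99%, 9.68% and 6.25% of those with 1 symbol. For downward differences the shares in the same bands were 0.779%, 1.64%, 3.64% and 2.10% against 2.33%, 4.14%, 5.88% and 5.21%. Each of these bands held at most 4 unannotated probe sets on the downward side.

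**Figure D3:**
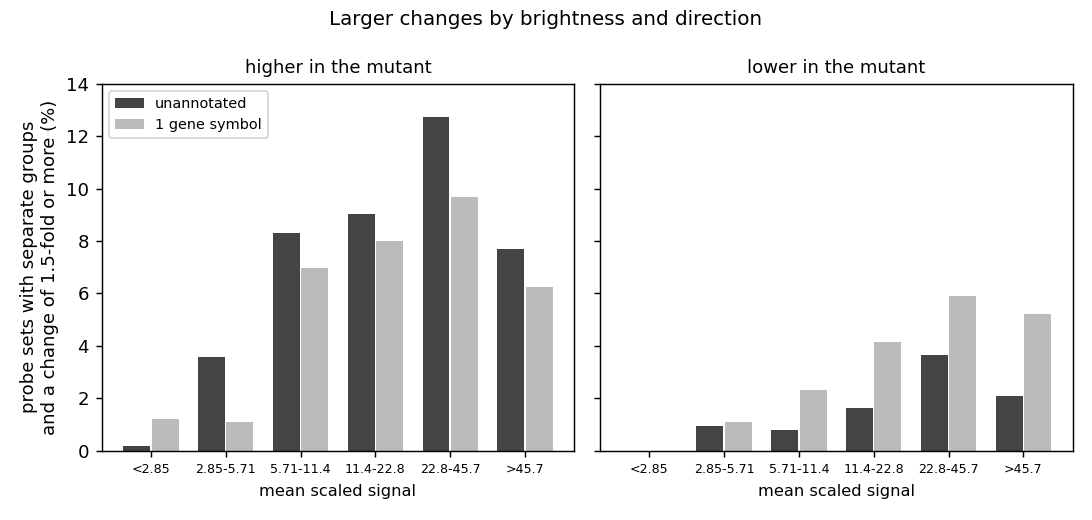
Percent of probe sets in each band of mean scaled signal (horizontal axis) whose 2 mutant arrays lie on one side of both wild-type arrays with a change of at least 1.5-fold, higher in the left panel and lower in the right. Dark bars are unannotated probe sets and light bars those with 1 gene symbol and no suffix, and the dark bars of the right panel stay at or below 3.64%.

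At an adjusted p under 0.10, 18 unannotated probe sets stood out, 17 higher (0.913%, against 1.02% of all tested) and 1 lower (0.0537%, against 0.841% of all). Their mean signals ran from 3.86 to 96.1, with 13 above the pseudocount, and the 17 higher ones had log2 changes from 0.79 to 1.44. Of the 16 calls in the fit without dim probe sets, 13 were among these 18, which is 81.2% of the former and 72.2% of the latter. None of the 18 passes the threshold of 0.05 in the fit of 9275, and the following values describe those with the smallest p.

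The smallest p belonged to 2233_at, which read 6.78 and 5.90 in wild type, compared with 29.97 and 24.2 in the mutant. Its log2 change was 1.44 ± 0.18 (SE, n = 2 per group; limma adjusted p = 0.0608), from means of 6.34 ± 0.628 and 27.1 ± 4.05 (SD), and the arrays do not overlap between groups. The neighbouring ID, 2232_at, read 6.25 and 4.16 in wild type, compared with 19.98 and 19.2 in the mutant (log2 change 1.22, SE 0.18, limma adjusted p = 0.0719). Wild-type values of both lay near the pseudocount, so these log2 changes understate the ratio of signals.

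The brighter probe sets of smallest p on the higher side come next. A small p favours close replicates and groups that are apart, so neither is a separate result for them. Probe set 9545_at read 51.1 and 43.9 in wild type, compared with 112.1 and 115.3 in the mutant, with a log2 difference of 1.17 ± 0.15 (SE, n = 2 per group; limma adjusted p = 0.0608). Its mutant values differed by less than its wild-type values, and the groups were far apart. Its ID number lies between those of LAF1, with a log2 change of -0.22, and YPK2, a protein kinase gene related to YPK1, with 0.67, both on chromosome XIII, and neither of those genes passed. Probe set 7164_at read 49.8 and 60.7 in wild type, compared with 114.6 and 122.4 in the mutant (log2 change 1.03, SE 0.16, limma adjusted p = 0.0735). By ID number it falls between FTH1, a vacuolar iron transporter gene on chromosome II, at 0.20, and ERV15 at -0.85. Probe set 7496_at read 13.7 and 11.7 in wild type against 32.5 and 31.5 in the mutant, again without overlap (log2 change 1.04, SE 0.17, limma adjusted p = 0.0808).

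Among the other 12 on the higher side, 6982_at was the brightest, at 51.8 and 65.0 in wild type, compared with 150.4 and 117.3 in the mutant (log2 change 1.12, limma adjusted p = 0.0845). Dimmer examples were 7431_at, from 12.8 and 11.97 to 36.8 and 28.8, and 8135_at, from 15.2 and 16.4 to 45.3 and 34.0. In both, mutant replicate 1 was the higher mutant array. Probe set 4735_at read more in both mutant arrays, 14.3 and 12.3 against 3.75 and 5.12 in wild type (log2 change 0.91, limma adjusted p = 0.0942). Its ID number lies between RAD2, a nuclease gene of nucleotide excision repair, at -0.11, and TNA1, the nicotinic acid transporter gene, which fell by 1.40 on the log2 scale (limma adjusted p = 0.0442). These 4 examples were chosen after their values were seen, and the 5 before them by smallest p.

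Few probe sets stood on the lower side. Probe set 5537_at read 32.8 and 37.9 in wild type, compared with 12.2 and 14.5 in the mutant, with a log2 difference of -1.11 ± 0.18 (SE, n = 2 per group; limma adjusted p = 0.0796). It was the only unannotated probe set below 0 at an adjusted p under 0.10. Its ID number lies between YER187W at -0.57 and TIM9, a gene for a chaperone of the mitochondrial intermembrane space, at -0.54, both on chromosome V and both short of the threshold. The next 4 by p were 9241_at, from 69.3 and 66.3 to 39.8 and 32.0, 2595_at, from 27.5 and 24.2 to 11.4 and 12.5, 2632_at, from 14.02 and 13.4 to 6.18 and 5.37, and 5819_at, from 34.8 and 30.6 to 17.9 and 12.7. Their log2 changes were -0.83, -0.84, -0.76 and -0.88, with limma adjusted p of 0.111, 0.112, 0.112 and 0.124. None of the 4 had overlapping groups, which the choice by smallest p favours.

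**Figure D4:**
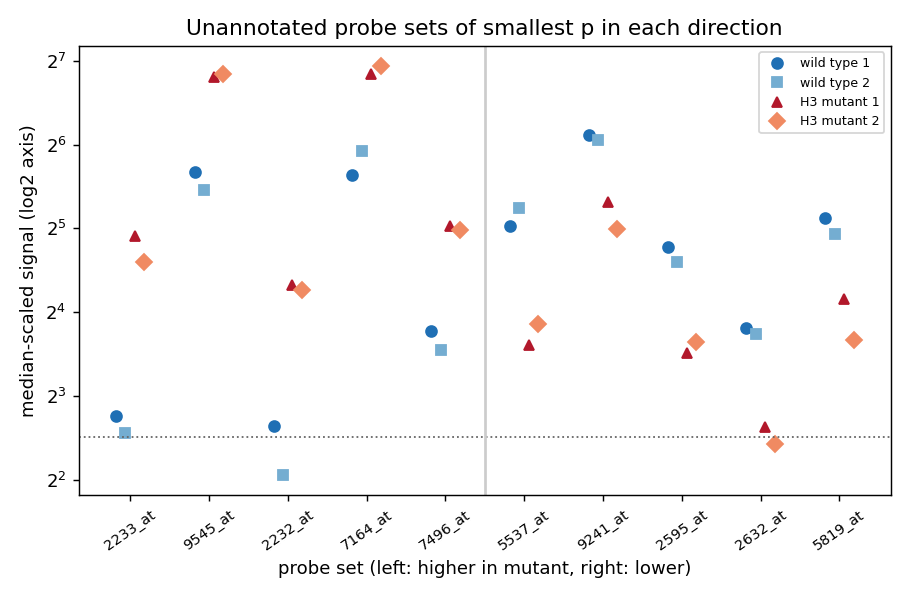
Median-scaled signal (vertical log2 axis) of the 5 unannotated probe sets of smallest p in each direction among those with a mean above the pseudocount (dotted line), 1 symbol per array. In all 10 the 2 mutant arrays lie on one side of the 2 wild-type arrays, a pattern that the choice by smallest p favours.

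ID numbers carry some positional information, which the choice of the probe sets did not use. Among annotated probe sets numbered from 4000 upward, 4855 of 4885 pairs of consecutive numbers that name different genes were on the same chromosome (99.4%), with gene starts a median of 1871 bases apart in R64. Below 4000 the same held for 60 of 94 pairs (63.8%). This shows an order of annotated probe sets and gives no position to an unannotated one. The 566 unannotated probe sets numbered below 4000 were dimmer, with a median mean signal of 3.30 against 6.77 for the 1295 others, and 5 of them exceeded 100 against 73. They held 19 of the 95 larger upward differences and 11 of the 18 downward ones. They also held 7 of the 17 that were higher at an adjusted p under 0.10. The limit of 4000 was set after the numbering had been seen.

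Some of the probe sets on the higher side were neighbours by ID number. At an unadjusted p under 0.05, the unannotated probe sets formed 17 runs of 2 consecutive numbers in 1 direction, 1 run of 3 and 2 runs longer than that. The runs 2192_at to 2193_at and 2671_at to 2672_at were lower in the mutant, and the others were higher. Runs were not counted among annotated probe sets, so these counts have no background beside them. One long run spans 2231_at to 2234_at, which holds 2 of the probe sets described above. Probe set 2231_at read 1.79 and 0.954 in wild type, compared with 7.42 and 10.99 in the mutant (log2 change 1.07, limma adjusted p = 0.0796), and 2234_at read 1.25 and 0.0867 against 4.19 and 2.10 (log2 change 0.47, limma adjusted p = 0.232). From 2231_at to 2233_at the signal rose from probe set to probe set on the wild-type and the mutant arrays alike. The wild-type arrays stayed near or below the pseudocount. Signals of different probe sets are not on a common scale, so this rise is not read further. The whole stretch of unannotated IDs around the run, from 2219_at to 2239_at, holds 21 probe sets, of which 19 were above 0, 12 had both mutant arrays above both wild-type arrays (a pattern held by 26.5% of all tested) and 1 had both below. The runs and this stretch were chosen after their values were seen, so they get no test. Its annotated neighbours by number, UTP22 and FAB1, are on different chromosomes (VII and VI), so its place cannot be read from them.

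**Figure D5:**
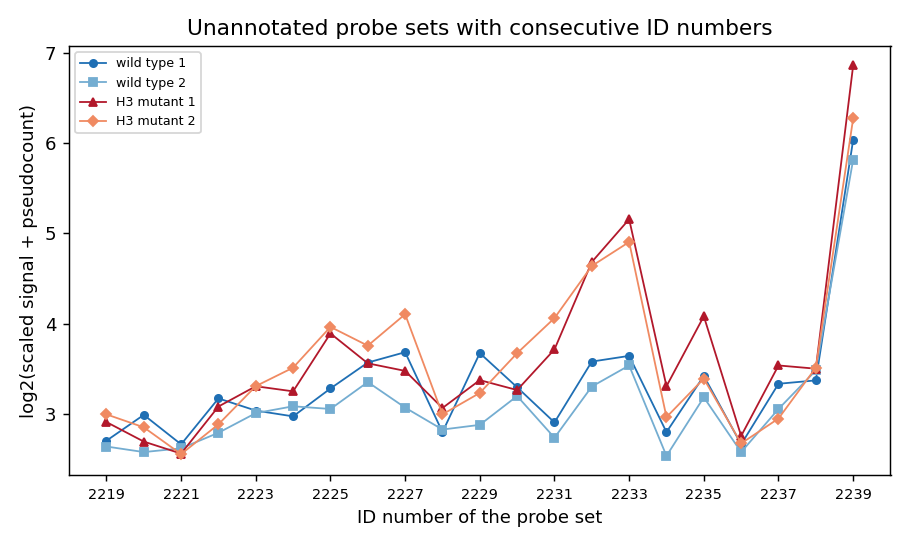
Log2 of scaled signal plus pseudocount (vertical axis) for the 21 unannotated probe sets with consecutive ID numbers from 2219 to 2239 (horizontal axis), 1 line per array. At 2231, 2232 and 2233 both H3 mutant lines stand above both wild-type lines, most at 2233, where the mutant signals are 29.97 and 24.2 and the wild-type signals 6.78 and 5.90.

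The other long run, from 8706_at to 8709_at, was in the range where numbers follow chromosomes. Probe set 8707_at read 7.50 and 13.96 in wild type, compared with 32.4 and 24.4 in the mutant (log2 change 1.07, limma adjusted p = 0.129), and 8709_at read 9.46 and 11.4 against 34.1 and 20.9 (log2 change 1.01, limma adjusted p = 0.129). Between them 8708_at had a log2 change of 0.59, and 8706_at had 0.48. All 4 had separate groups, and in 3 of them mutant replicate 1 was the highest array.

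Probe sets of adjacent number varied together between replicates as well. Over 532 adjacent pairs of an unannotated probe set and one with 1 symbol, numbered from 4000 upward and with means above the pseudocount, the changes between groups correlated with r = 0.257. The differences between the 2 wild-type arrays correlated over the same pairs with r = 0.452, and those between the 2 mutant arrays with r = 0.351. Over 230 pairs of 2 unannotated probe sets the values were 0.299, 0.466 and 0.389, and over 4335 pairs with symbols of different genes they were 0.281, 0.594 and 0.461. These correlations are across probe sets of the same 4 arrays, which are not independent. The replicate differences were thus the more alike of the 2 in adjacent probe sets, and their part in the runs of higher values was not tested.

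Genes that limit or remove such transcripts showed no call in the same limma fit. Of 24 measured genes for RNA surveillance and termination 0 passed in either direction (smallest limma adjusted p = 0.164). Over all probe sets tested 0.0323% were called higher and 0.216% lower, so 0 calls in so short a list says little. At an unadjusted p under 0.05, 1 of the 24 was higher and 4 were lower, where 9.66% and 8.6% of all were. The 24 genes had a median log2 change of -0.16, where all probe sets tested had 0.02. RRP6, the nuclear exosome nuclease gene, read 29.997 and 21.8 in wild type, compared with 27.97 and 22.98 in the mutant (log2 change -0.01). The helicase gene SEN1 read 100.3 and 111.7 against 170.1 and 143.9 (log2 change 0.54, limma adjusted p = 0.169), and SKI6, for a core exosome subunit, read 210.4 and 216.7 against 157.0 and 136.6 (log2 change -0.53, limma adjusted p = 0.164). Both pairs of groups were separate, in opposite directions. The other 3 below 0 at an unadjusted p under 0.05 were AIR1, for an RNA-binding subunit of the TRAMP complex (-0.64), and the exosome subunit genes RRP4 (-0.51) and MTR3 (-0.48).

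Of 25 genes known to limit stray transcription, among them chromatin reassembly factors, Rpd3S subunits and H3 methyltransferases, 0 passed (smallest limma adjusted p = 0.129). Of all probe sets tested 0.0323% were called higher and 0.216% lower, so this 0 says little as well. At an unadjusted p under 0.05, 1 of the 25 was higher and 1 lower, against 9.66% and 8.6% of all. The median log2 change of the 25 was -0.02. SIN3, a subunit of Rpd3 complexes, read 29.7 and 29.2 in wild type, compared with 53.2 and 47.7 in the mutant (log2 change 0.67, limma adjusted p = 0.129), and the gene below 0 was SPT2 at -0.40. Apart from RRP6, SPT6 and SET2, the genes named from both lists were chosen after their values were seen. SPT6, a histone chaperone of transcription elongation, read 30.7 and 36.5 against 22.0 and 27.5 (log2 change -0.37). The SET2 probe set read 0.982 and 1.56 in wild type, compared with 0.476 and 2.26 in the mutant, below the pseudocount on all 4 arrays, so its level could not be compared.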

How the data were processed

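The deposited intensity values, on a linear scale, came from MAS5 per the submitters' processing notes, with no version stated there. About 20 ug of total RNA per sample, from cells harvested at an OD600 of 0.5 to 0.7, was turned into biotin-labelled cRNA, per the labels' protocols. Detection calls were not used here. All signals (100%, within 0.01 of a step) are whole multiples of 0.1 on the wild-type arrays and of 0.0849 and 0.07 on the mutant arrays, so the latter carry further constants of unstated origin. Every array was therefore brought to the same median, the mean of the 4 array medians over the 9335 probe sets. A pseudocount of 5.71 was added before log2, which understates changes of dim probe sets.

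Groups came from the sample titles. Mutant minus wild type was tested two-sided with limma 3.58.1 (R 4.3.3), using lmFit and eBayes with a trend, over the 9275 probe sets other than the 60 controls, with Benjamini-Hochberg adjustment over all of them. No replicate block was used: deviations of same-numbered arrays from their group means correlated with r = -0.03, and the labels tie no number to a shared culture or day. The number of arrays limits the precision.

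Probe sets were named by a rule: up to 10 per direction past the threshold, filled to 5 by smallest p among those with a mean above the pseudocount, the 6 brightest, the least reproducible one of each group, and SET2, SPT6 and RRP6. Probe sets, gene lists and tests were chosen with earlier results of these data known. Gene names come from the platform annotation, and a gene is read by its brightest probe set without a suffix where it has one.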

Additional observations from a re-analysis of the deposited data

How the results depend on the processing

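The counts of unannotated probe sets past the threshold, 0 higher and 0 lower, depended on the variance model and on which probe sets were fitted. They were 15 and 1 (6 of the 10 named probe sets passing) with only probe sets whose mean exceeded the pseudocount (1.26% and 1.1% of all in that fit), 4 and 1 (5 of the 10) with robust eBayes (0.377% and 0.485% of all), and 17 and 1 (6 of the 10) at an adjusted p under 0.10 (1.02% and 0.841% of all). On the values as deposited they were 7 (0.376%, against 0.399% of all) and 26 (1.4%, against 7.23% of all), with 8 of the 10 passing. With the replicate block, for a pairing the design does not state, they were 96 (5.16%, against 5.22% of all) and 23 (1.24%, against 3.40% of all), with 10 of the 10 passing. The SE of 2233_at was larger with the block, 0.24 against 0.18, while its limma adjusted p fell from 0.0608 to 3.5e-07. Leaving out 1 array gave 0 to 35 higher, 0 to 3 lower and 0 to 5 of the 10: 35 and 3 without wild-type replicate 1 (2.16% and 0.809% of all), 14 and 3 without wild-type replicate 2 (1% and 0.755% of all), and 0 and 0 without either mutant replicate, with the single array left in a group taken to vary as the other group does.

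The median log2 change was -0.086 and the share above 0 was 36.3% on the values as deposited. Over the 4 fits without 1 array the median ran from -0.0010 to 0.14 and the share from 49.4% to 66.0%. The 10 named changes kept their direction under all 15 alternatives, which is no test of them. They were chosen by smallest p and their groups do not overlap, so leaving out 1 array could not reverse them. Alternatives that changed only the variance model, the threshold or the probe sets fitted left their log2 changes as they were. On the values as deposited 4 RNA surveillance genes and 1 of the genes limiting stray transcription passed, all lower, in a fit that called 7.23% of all probe sets lower, an alternative chosen for these lists after the data were seen. Quantile normalization, the other scaling, other pseudocounts, controls in the fit and eBayes without trend left both counts at 0. Limiting the set to listed probe sets was not run, since the annotation lists none of the 1861. Causes of these differences were not tested beyond the number of probe sets or arrays fitted.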
